A study of Oryza sativa with 18 samples.

Results

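Coleoptiles after 4 d in nitrogen gas were compared with embryos after 24 h in nitrogen gas, over all 5908 regions that the authors listed for a difference between the dry seed and either 24 h group. The comparison used 6 of the 18 MethylC-seq libraries of the series, 3 per time. All were from wild-type rice (Oryza sativa cultivar Amaroo), de-hulled and grown at 30 °C in the dark in buffered medium bubbled with nitrogen. Whole coleoptiles were taken at 4 d and dissected embryos at 24 h, so time and tissue cannot be told apart. For comparison, coleoptiles after 4 d in air (with the primary leaf removed) were set against embryos after 24 h in air, and dry seed embryos at 0 h and coleoptiles moved to air for 1 d once 3 d of nitrogen had passed (re-aeration) are given where they bear on a region. The labels do not say that libraries of a group came from separate cultures, so p-values here rest on a spread among libraries that may be technical.

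DNA methylation in plants is laid down on cytosines in the CG, CHG and CHH contexts. A methyltransferase that follows the replication fork maintains the CG form, whereas CHH methylation has to be written again after each round of replication, in part through small RNAs. Marks are lost passively when cells divide without that upkeep, or actively through DNA glycosylases of the DEMETER and ROS1 family. The coleoptile, the sheath around the first leaf, is the organ that rice elongates when it germinates without oxygen, largely by cell expansion.

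A level is the percent of the reads of a region that were methylated, and it was used where a library had 10 or more reads there. All differences are in percentage points. Of the 5908 regions, 5866 had at least 2 libraries per group with that depth, 5708 had it in all 6 libraries, and 42 were left out. Regions were 3 to 393 bp long with a median of 58 bp, and each held 3 to 90 sites by the authors' count. Total reads over the regions were 908058, 988083 and 1008683 in the 4 d nitrogen libraries and 955995, 1067876 and 906824 in the 24 h nitrogen libraries. The median region had 120 to 133 reads per library at 4 d and 122 to 142.5 at 24 h. The 24 h nitrogen libraries were among those used by the authors to pick these regions, and the 4 d libraries were not. The column names speak of CG and the names of the region sets of CNN, so the cytosine context is not settled here. No genome build is stated, so positions are those of the authors' table and no gene or sequence was assigned.

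The mean methylation level of all these regions differed little between 4 d and 24 h without oxygen. Over the 5708 regions with reads in all 6 libraries the mean level was 29.3%, 30.2% and 29.1% in the 4 d nitrogen libraries, against 29.3%, 29.5% and 29.7% in the 24 h nitrogen libraries. The ranges overlap, with library 2 of 4 d highest of all and library 3 of 4 d lowest. The group means were 29.5% ± 0.627 at 4 d and 29.5% ± 0.198 at 24 h (SD, n = 3 each), a difference of 0.0392 points. The exact two-sided permutation test gave p = 1, where 3 against 3 cannot go below 0.1. Weighting regions by their reads moved the difference to -0.64 points (exact permutation p = 0.4), leaving out library 2 of 4 d moved it to -0.32, and leaving out library 1 of 24 h moved it to -0.0552. The regions differed by how the 24 h libraries had entered their choice. In the 358 regions with full data where the authors' deposited table lists none of the 24 h nitrogen libraries as low, the level was 31.99% ± 0.797 at 4 d and 34.03% ± 0.545 at 24 h (SD, n = 3 each). Every 4 d library was below every 24 h library there, by -2.03 points on average (exact permutation p = 0.1, adjusted 0.4 over 4 classes). The class was set with the same 24 h libraries that are compared, so this separation is a description and no independent test. In the 2187 regions where that table lists all 3 as low, the level was 28.6% ± 0.778 at 4 d and 28.3% ± 0.293 at 24 h (SD, n = 3 each), and the libraries overlapped (exact permutation p = 0.6).

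**Figure D1:**
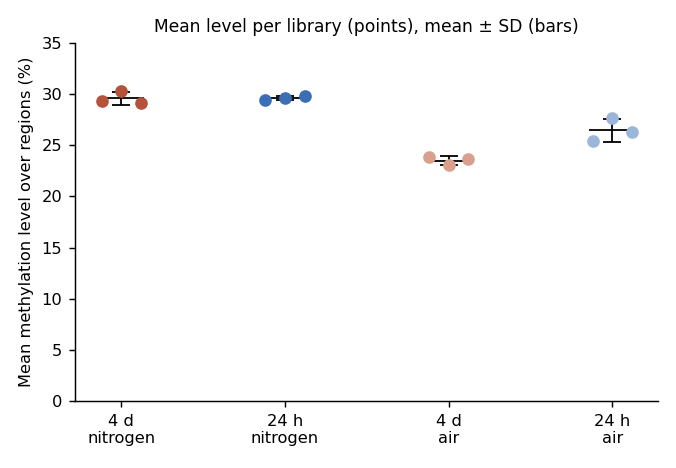
Mean methylation level (%) over the 5606 regions with 10 or more reads in all 12 libraries, for the 4 d and 24 h libraries in nitrogen and in air; points are libraries and bars the mean ± SD of 3. The nitrogen libraries of both times lie between 29.1% and 30.3%, whereas the 4 d air libraries lie below the 24 h air libraries.

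The dry seed sets the scale of this stability. Over the 5598 regions with reads in all 18 libraries the mean level was 67.8% ± 1.64 in the dry seed, 29.6% ± 0.210 at 24 h in nitrogen and 29.6% ± 0.651 at 4 d in nitrogen (SD, n = 3 each). The median region stood 38.1 points below the dry seed both at 24 h and at 4 d. Both values share the dry seed libraries, and the regions were picked for that first difference. Coleoptiles of the same age that spent their last day in air stood at 57.4% ± 0.667 (SD, n = 3) in the same regions.

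In most single regions the observed group means also differed little. This does not show that their levels stayed the same, since most of the intervals given below reached beyond 10 points. The difference between 4 d and 24 h had a median of -0.24 points and quartiles of -3.81 and 3.38, and its median size regardless of sign was 3.61 points. Group means differed by less than 5 points in 3676 regions (62.7% of 5866) and by less than 10 points in 5159 (87.9%). Of these regions, 2796 stood higher at 4 d and 3053 lower. Across the 5708 regions with full data, the level at 4 d and that at 24 h had a Pearson r of 0.943 and a Spearman rho of 0.941. These are descriptions across regions, which are not independent replicates.

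**Figure D2:**
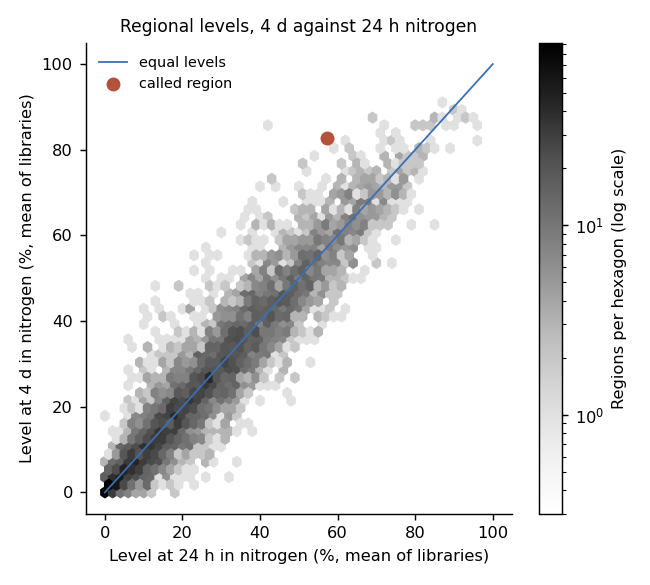
Level at 4 d in nitrogen (%, vertical) against level at 24 h in nitrogen (%, horizontal), both means of the libraries, for 5866 regions, as counts per hexagon on a log scale. The regions lie along the line of equal levels (Pearson r = 0.943 over the 5708 regions with full data), and the red point is the called region on chromosome 1.

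Single libraries of different times were nearly as alike as libraries of the same time. Taken pairwise, a 4 d and a 24 h library differed by a median of 5.38 to 5.77 points (absolute, over 9 pairs). This median was 5.03 to 5.21 points over the 3 pairs within 4 d and 5.32 to 5.54 points over the 3 pairs within 24 h. The pairs across times thus overlap the pairs within 24 h and lie above those within 4 d. Pearson r across regions was 0.854 to 0.868 for pairs across times, 0.869 to 0.878 within 4 d and 0.863 to 0.873 within 24 h. Placed in classes of 10 points (0 to 10% up to 60% or more), 46.7% to 49.4% of regions fell in the same class in 2 libraries of different times. Within 4 d this was 49.9% to 51.4%, and within 24 h 48.3% to 49.5%. The values of a pair share depth and region, and the mean chi-square per region between libraries was 3.40 to 3.70 across times, 3.13 to 3.32 within 4 d and 3.31 to 3.39 within 24 h. No 2 libraries therefore agreed within the noise of independent reads, and each was kept as a replicate. By chi-square every pair across times stood above every pair within a time, narrowly at the nearest (3.397 against 3.394).

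**Figure D3:**
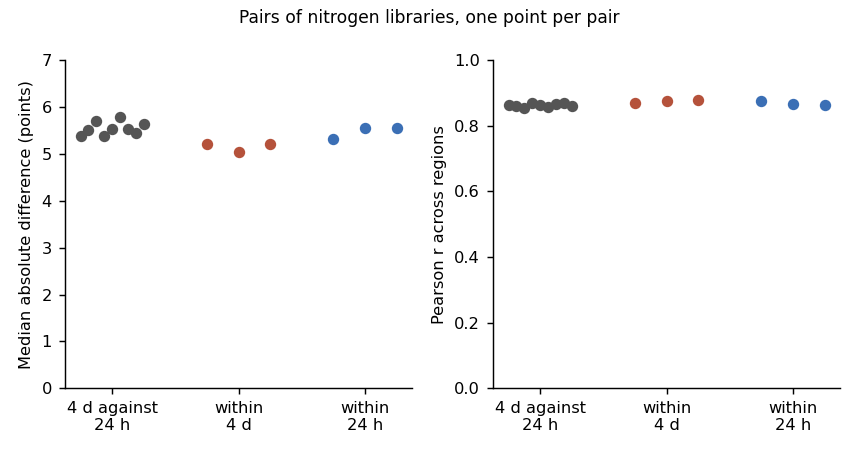
Median absolute difference in level (points, left) and Pearson r across regions (right) for each pair of nitrogen libraries: 9 pairs of a 4 d with a 24 h library, 3 pairs within 4 d and 3 within 24 h. Differences across times (5.38 to 5.77 points) reach slightly higher than those within 24 h (5.32 to 5.54) and within 4 d (5.03 to 5.21).

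A quasi-binomial logistic model on methylated and total reads was fitted to every region with all 18 libraries sharing the spread. Calls needed an adjusted p under 0.05 (Benjamini-Hochberg, all regions) together with a difference of at least 10 points. It called 1 of 5866 regions higher at 4 d (0.017%) and 0 lower (0%). At an unadjusted p under 0.05 there were 220 of the 5866 regions, 103 higher and 117 lower. Limma on the levels of 18 libraries called 1 region higher and 1 lower. In 351 regions (6.15% of 5708) all 4 d libraries stood above all 24 h libraries, and in 390 (6.83%) all stood below. A missed threshold does not show that a level stayed the same, so the interval of the difference was also taken from limma on all 18 libraries. The median 95% interval reached 12.3 points to either side. It lay within 20 points of 0 in 4100 of 5863 regions (69.9%) and within 10 points in 391 (6.67%), and these shares depend on the libraries that set the spread. With the 4 groups of 24 h and 4 d the interval lay within 10 points in 1462 regions (24.9%), and with the 2 nitrogen groups in 1304 of 5866 (22.2%). In most regions a change of 10 points or more thus lay inside the interval under each choice.

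The called region lies on chromosome 1 from 30467621 to 30467715 (95 bp, 4 sites). It stood at 79.6%, 84.5% and 83.9% in the 4 d nitrogen libraries (203 to 260 reads), against 58.3%, 55.8% and 58.0% in the 24 h nitrogen libraries (207 to 345 reads). The lowest 4 d library was thus far above the highest 24 h library. The means were 82.7% ± 2.64 and 57.4% ± 1.36 (SD, n = 3 each), a rise of 25.3 points (95% interval 17.3 to 33.2 in limma), with an adjusted p of 0.00831 in the quasi-binomial model and 0.0202 in limma. The dry seed had 73.7% ± 5.66 and re-aerated coleoptiles 84.3% ± 1.45 there. In air the region stood at 46.1% ± 3.26 at 4 d and 46.3% ± 3.72 at 24 h (SD, n = 3 each). The change in nitrogen was thus 25.5 points above that in air. The quasi-binomial interaction term, which compares the changes in log odds and not in points, did not pass (adjusted p = 0.0751). The call at 4 d was lost without library 2 or 3 of 4 d (adjusted p = 0.106 and 0.0909 in the quasi-binomial model) and without library 2 of 24 h (0.127). It was also lost when the spread came from the 6 nitrogen libraries alone (0.870), and over all alternatives the adjusted p ran between 0.00813 and 0.870.

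The region that limma on 18 libraries called lower is on chromosome 7 from 1438902 to 1438967 (66 bp, 4 sites), a choice made on its values. The levels there were 6.13%, 3.48% and 0% in the 4 d nitrogen libraries (37 to 114 reads), against 29.5%, 40.96% and 27.7% in the 24 h nitrogen libraries (90 to 134 reads). The groups do not overlap, and the difference of -29.5 points was the largest fall among the comparable regions. Its adjusted p was 0.0202 in limma on 18 libraries and 0.0620 in the quasi-binomial model. Limma on the 4 groups of 24 h and 4 d called 0 regions lower, so the call is lost there. The region stood at 73.9% ± 3.84 in the dry seed and 75.8% ± 1.21 after re-aeration (SD, n = 3 each).

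Large differences were more often upward. The group means differed by 20 points or more in 92 regions, 78 higher and 14 lower at 4 d. In the 78 the mean level was 53.5% at 4 d and 28.4% at 24 h. These regions were short and thinly read. The median of their fewest reads in any of the 6 libraries was 25, against 88 over all comparable regions, and their median length was 21 bp. In 67 of the 78 at least 1 nitrogen library had under 50 reads. Their 4 d libraries also differed among themselves, with a median range of 22.5 points, against 8.96 over all regions. The part that depth and spread have in this excess was not tested.

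Further regions were named by a rule added after the values were seen. They had the 4 largest differences in each direction, outside the called region, among those with 50 or more reads in all 6 libraries and no overlap between the times. On chromosome 10 from 22452743 to 22452806, the libraries stood at 66.1%, 17.3% and 34.3% at 4 d, against 7.22%, 6.65% and 14.7% at 24 h. Library 1 alone carried much of that gap. On chromosome 3 from 21012412 to 21012493, the levels were even within each time, with 68.4%, 65.0% and 61.1% at 4 d, against 40.5%, 42.02% and 39.7% at 24 h. The difference there was 24.1 points, and its interval in limma ran from 12.5 to 35.7. A difference of 25.7 points was found on chromosome 4 (29266241 to 29266260), and one of 24.2 points on chromosome 5 (27398597 to 27398651). The adjusted p was 1 in the quasi-binomial model for each of these 4 regions.

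In the opposite direction, levels on chromosome 8 between 16397029 and 16397119 were 11.1%, 7.05% and 5.25% at 4 d, against 29.4%, 32.4% and 42.6% at 24 h, a difference of -27.0 points. This region had 2.90% ± 4.29 at 4 d and 6.46% ± 6.41 at 24 h in air (SD, n = 3 each), so that 24 h nitrogen stood apart from the other germinated groups kept in 1 gas. Between 28547458 and 28547498 on chromosome 7 they were 18.5%, 19.5% and 4.63% at 4 d, against 31.6%, 43.9% and 38.3% at 24 h. After re-aeration it had 7.87% ± 2.72 (SD, n = 3). Re-aerated coleoptiles stood below 4 d nitrogen in 382 regions in all and above it in 5491. Chromosome 10 held the other two, with -20.5 points between 18124519 and 18124578 and -19.8 points between 11192944 and 11193003. The adjusted p was 1 in the quasi-binomial model for these regions as well.

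The steadiest regions were taken as the 2 with the smallest range over the 6 nitrogen libraries in each of 4 classes of level at 24 h, among regions with 100 or more reads in each library. Their steadiness and their spread of levels follow from that choice and are a description. On chromosome 4 from 10583143 to 10583202, all 6 libraries stood at 0% with 112 to 170 reads at 4 d and 112 to 126 at 24 h. A count of 0 there allows a level of up to 2.68% in the library with fewest reads, for counting error only. This region had 69.8% ± 3.95 in the dry seed and 68.8% ± 15.4 after re-aeration (SD, n = 3 each). On chromosome 1 from 17209749 to 17209862, the levels were 0%, 0.353% and 0.303% at 4 d, against 0% in each library at 24 h, where a count of 0 allows up to 1.46% in the least read library. Both regions were thus at or near 0 at both times.

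At low and middle levels the range over the 6 libraries was wider, at 1.48 to 3.06 points. On chromosome 8 from 18392216 to 18392484, the libraries stood at 9.17%, 10.5% and 10.7% at 4 d, against 10.2%, 10.1% and 10.3% at 24 h. On chromosome 12 from 21609973 to 21610071, the means were 9.72% ± 0.615 at 4 d and 10.3% ± 0.383 at 24 h (SD, n = 3 each). On chromosome 6 from 1453676 to 1453838, the libraries stood at 62.4%, 61.3% and 60.3% at 4 d, against 63.3%, 60.7% and 63.1% at 24 h. The times overlap in each of these regions. On chromosome 4 from 8073852 to 8073943, the means were 46.2% ± 1.40 at 4 d and 45.2% ± 0.627 at 24 h (SD, n = 3 each).

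Among the regions that kept high levels, that on chromosome 4 from 34444595 to 34444636 stood at 89.4%, 89.5% and 91.8% at 4 d, against 91.4%, 90.2% and 89.2% at 24 h. In air it stood at 66.1% ± 6.85 at 4 d and 73.9% ± 17.2 at 24 h (SD, n = 3 each), and in the dry seed at 95.6% ± 0.822. On chromosome 3 from 25056937 to 25057170, the means were 74.5% ± 0.751 at 4 d and 74.3% ± 1.25 at 24 h (SD, n = 3 each). In these high regions, chosen for a small range over the 6 libraries, that range was 2.32 and 2.59 points. In the 2 longest regions, chosen by length alone, it was 2.95 and 4.33 points, so the ranges cannot be compared. The 393 bp region on chromosome 5 from 17879262 to 17879654 had 29.9% ± 1.29 at 4 d and 28.4% ± 0.346 at 24 h. The 372 bp region on chromosome 3 from 36413398 to 36413769, with 90 sites, had 27.6% ± 2.17 at 4 d and 27.1% ± 1.49 at 24 h (SD, n = 3 each).

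Regions were also followed by their class of level at 24 h. Of 1034 regions under 10% at 24 h, 871 (84.2%) were still under 10% at 4 d, and of 455 regions at 60% or more, 375 (82.4%) were still there. In the classes between, 48.3% to 55.7% stayed in the same 10-point class. These shares cannot be compared directly, since the outer classes have a single edge to cross and the highest is wider than the others. Over all classes 3534 regions (60.2%) kept their class, 5612 (95.7%) were in the same or the next class, 1132 had moved up and 1200 down. The median absolute difference was 1.77 points in the lowest class, 4.68 points from 30 to 40% and 4.07 points in the highest class. The differences between libraries of the same time followed the same course, with medians of 2.27 to 2.70 points in the lowest class and 6.42 to 7.02 points from 30 to 40%.

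The direction of the small average change with level depended on how the classes were made. Classed by the 24 h nitrogen libraries themselves, regions under 10% stood at 5.59% ± 0.181 at 4 d and 4.80% ± 0.0457 at 24 h, and regions at 60% or more at 67.8% ± 0.481 and 68.9% ± 0.709 (SD, n = 3 each). These are differences of 0.79 and -1.12 points. When 1 library of 24 h set the class and the other 2 the change, the lowest class differed by -0.71 to -0.22 points and the highest by 0.34 to 0.73 points over the 3 choices. Classed by the 24 h air level, the differences were -0.76 and 0.67 points. The sign at both ends was thus turned round in both of these classifications. The smallest adjusted exact permutation p over the classes was 0.7 by 24 h nitrogen and 0.35 by 24 h air, where 3 against 3 libraries cannot go below 0.1 before adjustment. The libraries of the 2 times did not overlap in the lowest class and that from 50 to 60% by 24 h air, each with an exact permutation p of 0.1. They did not overlap in the lowest class by 24 h nitrogen either (exact permutation p = 0.1). That class was set by the same 24 h libraries that are compared, so its lack of overlap is no independent test.

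**Figure D4:**
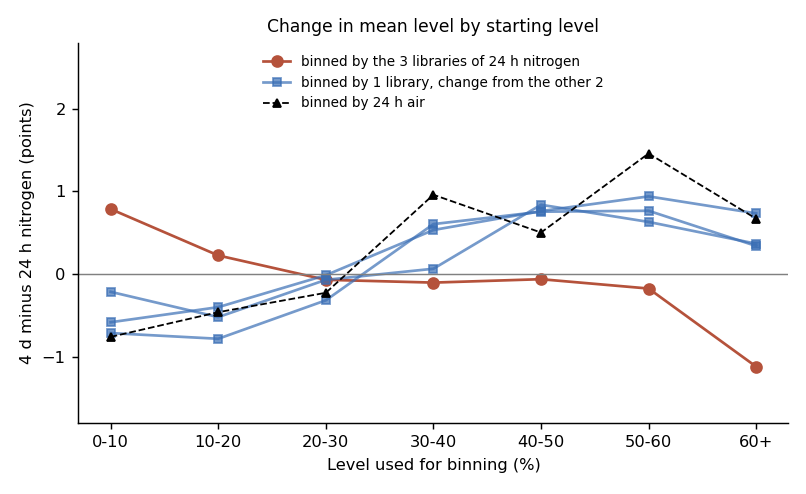
Mean level at 4 d minus 24 h in nitrogen (points) by class of level (%), with classes set by all 3 libraries of 24 h nitrogen (red), by 1 of them with the change taken from the other 2 (blue, 3 lines) or by 24 h air (black dashes). The red line runs from 0.79 to -1.12 points, whereas the others lie below 0 in the lowest class and above 0 in the highest.

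The dry seed level, which none of the compared libraries measured, also ordered the differences, in a split added after the data were seen. The authors picked these regions for a difference between the dry seed and either 24 h group. That choice ties the dry seed level to the 24 h levels, so the order is a description. Regions at 90% or more in the dry seed had 55.2%, 57.0% and 53.7% in the 4 d nitrogen libraries, against 52.7%, 52.0% and 52.4% in the 24 h nitrogen libraries (197 regions with full data). Regions from 80 to 90% in the dry seed had 45.4% ± 0.721 at 4 d and 44.4% ± 0.298 at 24 h (SD, n = 3 each). In both classes every 4 d library stood above every 24 h library. From 50 to 60% in the dry seed the order was the reverse, with 18.02% ± 0.436 at 4 d and 18.8% ± 0.209 at 24 h (SD, n = 3 each). The differences over the 6 classes, from the lowest dry seed level to the highest, were -0.65, -0.73, -0.23, 0.01, 1.05 and 2.97 points. The exact permutation p was 0.1 in the 3 separated classes, the smallest possible, and 0.2 after adjustment over the classes. The median number of reads was 91 in the highest class and 111 to 138 in the others.

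The group means of the 2 times differed less in longer regions and in regions with more reads. The median absolute difference was 5.14 points under 20 bp, 4.13 from 20 to 49 bp, 3.32 from 50 to 99 bp, 2.89 from 100 to under 200 bp and 1.88 at 200 bp or more. The share within 10 points was 77.3% under 20 bp and 95.7% at 200 bp or more, and no region of 100 bp or more differed by 20 points. The median number of reads was 47 under 20 bp and 529.5 at 200 bp or more. Libraries of the same time differed likewise, by medians of 7.54 to 8.86 points under 20 bp and 1.89 to 2.40 points at 200 bp or more. The share of regions whose libraries did not overlap between the times ran the other way, at 13.6% under 20 bp and 21.7% (of 69) at 200 bp or more, against 13% over all.

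The mean level moved slightly with length. Under 20 bp it was 28.7% ± 0.492 at 4 d and 27.6% ± 0.402 at 24 h, and from 100 to under 200 bp it was 32.6% ± 0.726 and 33.3% ± 0.0190 (SD, n = 3 each). These differences of 1.16 and -0.78 points had exact permutation p-values of 0.1 and 0.4. Set against all other regions in the same libraries, each of the 5 length classes gave an exact permutation p of 0.1, the smallest possible, before and after adjustment. Reads moved with it. Where the fewest reads in any of the 6 libraries were 10 to 49, the mean level was 24.6% ± 0.558 at 4 d and 23.3% ± 0.159 at 24 h, and with 200 or more it was 42.1% ± 0.583 and 43.2% ± 0.0701 (SD, n = 3 each). In the 2583 regions with 100 or more reads in each library, the difference was -0.35 points from 20 to 49 bp and -0.91 from 100 to under 200 bp, and -4.13 in the 11 regions under 20 bp. These 11 regions stood at 45.8% at 24 h, against 27.6% over all regions under 20 bp with full data. They are too few and too unlike the rest to show whether the rise goes with reads, which was not tested. Classed by the number of sites, regions with 3 or 4 sites differed by -0.00208 points and those with 30 or more by 0.85, with no order between.

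**Figure D5:**
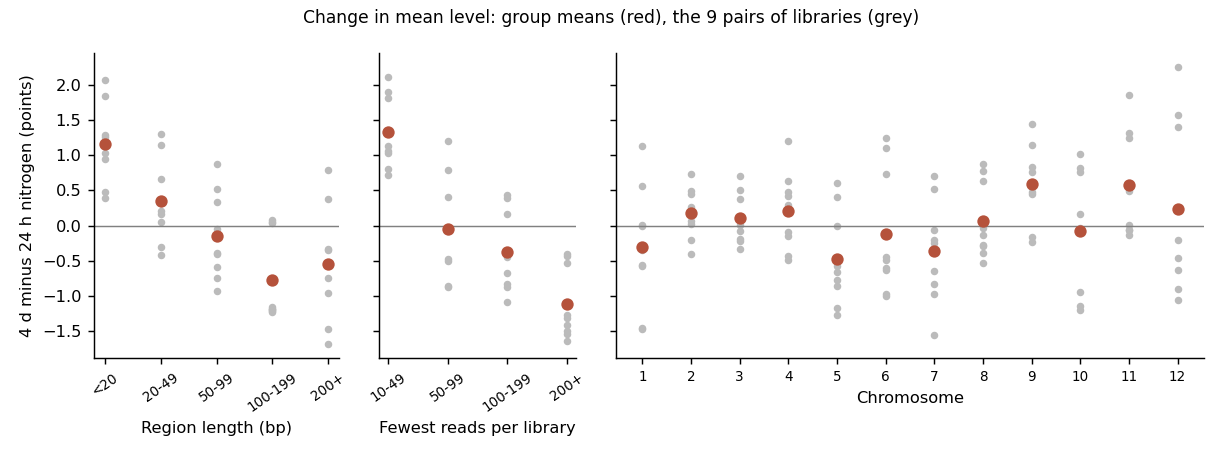
Mean level at 4 d minus 24 h in nitrogen (points) by region length (bp, left), by the fewest reads in any of the 6 libraries (middle) and by chromosome (right); red points are group differences and grey points the 9 pairs of a 4 d with a 24 h library. The shortest and the least read regions lie above 0 (1.16 and 1.33 points), and every chromosome lies between -0.48 and 0.58 points.

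The differences between chromosomes were small. The difference in mean level was above 0 on 7 chromosomes and below 0 on 5, between -0.48 points on chromosome 5 and 0.58 on chromosomes 9 and 11. Chromosome 5 had 29.8% ± 0.704 at 4 d and 30.2% ± 0.310 at 24 h, and chromosome 9 had 29.5% ± 0.374 and 28.9% ± 0.509 (SD, n = 3 each). On none of the 12 were the libraries of the 2 times separated, and the smallest exact permutation p was 0.3. Set against all other regions in the same libraries, chromosome 5 differed by -0.56 points and chromosome 11 by 0.59. Both had an exact permutation p of 0.1, the smallest possible, and 0.65 after adjustment, which was the lowest adjusted value of any chromosome. Between 85.9% and 91.0% of the regions of a chromosome stayed within 10 points, highest on chromosome 8 and lowest on chromosome 10. The share whose libraries did not overlap between times was 10.4% to 15.4% per chromosome, against 13% over all.

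Windows within chromosomes spread more widely than whole chromosomes did. Each window held fewer regions than its chromosome, and the windows were not tested. In 76 windows of 5 Mb with 20 or more regions, the mean difference was above 0 in 44 and below 0 in 32, and reached 1 point in 19. It was lowest on chromosome 10 from 10 to 15 Mb, at -2.46 points over 76 regions. The highest were on chromosome 12 from 10 to 15 Mb, at 2.38 points over 24 regions with a median of -0.02, followed by chromosome 9 from 5 to 10 Mb (71 regions) and chromosome 10 from 0 to 5 Mb (76 regions), both at 2.17 points. The 7 regions that the table places on a sequence named S had 25.5% ± 3.46 at 4 d and 22.3% ± 3.08 at 24 h (SD, n = 3 each; exact permutation p = 0.2). Among these 7, 5 stayed within 10 points and 2 were higher by 10.3 and 12.8 points, with libraries that overlapped between times.

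The course in air was set beside that in nitrogen. Over the 5606 regions with reads in all 12 libraries, the change from 24 h was -0.03 points in nitrogen and -2.95 in air. Nitrogen stood at 29.6% ± 0.650 at 4 d and 29.6% ± 0.212 at 24 h, and air at 23.5% ± 0.413 at 4 d and 26.4% ± 1.13 at 24 h (SD, n = 3 each). The air libraries of the 2 times did not overlap (exact permutation p = 0.1, the smallest possible). The difference between the changes was 2.92 points, with a two-sided p of 0.06 over all 400 exact permutations of the times within each gas. That permutation takes both gases to be without change in time, and the air libraries were separated. It therefore cannot decide whether the 2 changes were equal.

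Region by region the test of that difference called none. The interaction term of the quasi-binomial model, which compares the changes in log odds, called 0 of 5840 regions in either direction (0%). It gave 306 an unadjusted p under 0.05, of which 273 had the more positive change in points in nitrogen. Limma called 1 on 18 libraries and 0 on the 4 groups of 24 h and 4 d. In air the quasi-binomial model gave 643 of 5866 regions an unadjusted p under 0.05, 65 higher and 578 lower at 4 d. The same count in nitrogen was 220 of 5866. In air the model called 0 regions higher and 2 of 5866 lower (0.0341%) at 4 d. Both are given for their values. Between 31261714 and 31261758 on chromosome 3, air had 1.97% ± 2.00 at 4 d and 30.9% ± 9.47 at 24 h, and nitrogen had 19.4% ± 1.69 and 28.3% ± 5.59. On chromosome 7 from 8056030 to 8056102, air had 33.9% ± 2.44 at 4 d and 51.9% ± 2.99 at 24 h, and nitrogen had 53.6% ± 2.44 and 59.1% ± 0.503 (SD, n = 3 each). All 4 d air libraries stood below all 24 h air libraries in 18.5% of regions and above in 4.07%, against 6.83% below and 6.15% above in nitrogen.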

How the data were processed

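MethylC-seq libraries were prepared from extracted genomic DNA spiked with lambda DNA, per the labels' protocols. The authors deposited, per region and library, a methylated read value, a total read count and a percent. The deposited methylated values are estimated counts, each a whole number times a library factor of 0.9977 to 0.9983 (100% whole to within 0.1 after division), and the deposited percent is their ratio to the total. Not given in the sources used here are the aligner, region caller, filters and genome build. The 2 tables without 24 h libraries were not used, and 0 per-library columns were left unused.

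Samples were grouped by title. Methylated estimated counts were rounded and tested in a quasi-binomial logistic model with likelihood-ratio F tests (numpy 2.4.6, scipy 1.17.1), with a term per group, dispersion of at least 1 (median 4.34) and 2 or more libraries per group. Limma 3.58.1 on the deposited percent gave intervals. Library means were compared by exact permutation. Named regions were the called, the steadiest in 4 level classes and the 2 longest; other names and all splits were chosen with earlier results of these data known. Read intervals and floors cover counting error only, and reads over neighbouring cytosines are not independent.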

Additional observations from a re-analysis of the deposited data

Results flagged for a closer look

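The region on chromosome 1 from 40703352 to 40703367 (16 bp, 3 sites) moved in opposite directions in the 2 gases. It stood at 66.5%, 74.1% and 62.2% in the 4 d nitrogen libraries (53 to 93 reads), against 47.7%, 33.7% and 29.9% in the 24 h nitrogen libraries (23 to 74 reads). In air it stood at 23.5%, 23.6% and 41.6% at 4 d (34 to 48 reads), against 56.1%, 71.3% and 51.9% at 24 h (21 to 80 reads). Every 4 d library was above every 24 h library in nitrogen and below every one in air. The change was 30.4 points in nitrogen and -30.2 in air, a difference of 60.6 points. The adjusted p for unequal changes was 0.0662 in the quasi-binomial interaction term, in log odds, and 0.0112 in limma on 18 libraries, in points. Limma on the 4 groups of 24 h and 4 d called 0 regions. Without library 3 of 4 d air the quasi-binomial value was 0.0498. The dry seed had 89.2% ± 1.76 and re-aerated coleoptiles 79.2% ± 4.21 there (SD, n = 3 each). The choice of this region was made on its values. Of 5606 regions with reads in all 12 libraries, 33 were separated upward in nitrogen and downward in air, and 5 the other way round. Taken singly, 6.15% of 5708 regions were separated upward in nitrogen and 18.5% of 5706 downward in air. The shares for the other direction were 6.83% downward in nitrogen and 4.07% upward in air. The counts of 33 and 5 were not tested against these shares.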

How the results depend on the processing

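The count of called regions between 4 d and 24 h nitrogen was 2 with limma on 18 libraries, 1 with limma on the 4 groups of 24 h and 4 d, 2 with limma and a replicate block, 0 with the spread of the 2 groups, and 0 to 1 when a library was left out. It stayed at 1 with the replicate block in the quasi-binomial model (adjusted p = 0.0334 for the called region). Same-numbered libraries did not deviate together (correlations of -0.0229 to -0.00148), so the numbers are not taken to pair the libraries. The count of regions whose change differed between the gases was 1 with limma on 18 libraries, 0 with limma on the 4 groups of 24 h and 4 d, and 0 to 1 with a library left out. The difference in mean level was -0.0617 with a read minimum of 20, -0.64 with read-weighted levels and -0.32 to 0.26 with a library left out, and it was 0.0392 with the replicate block. The lowest minus the highest level class was 1.91 points, against -1.43 in classes by 24 h air, -1.59 by the mean of both times, -1.05, -0.58 and -1.32 by single 24 h libraries, and -3.62 by the dry seed level, which was added after seeing the data. The shortest minus the longest class was 1.71 points, against -0.85 for the fewest minus the most sites. With 100 or more reads it was -3.59, on 11 regions in the shortest class, also added later. The causes were not tested. The median number of reads was 47 under 20 bp and 529.5 at 200 bp or more.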
